A study of Mus musculus with 8 samples.

Results

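Aminoacyl-tRNA synthetases join each amino acid to its transfer RNA and so supply the ribosome with its building blocks. Animal cells hold a cytosolic set and a mitochondrial set, and both are encoded by nuclear genes. Naive T cells carry little cytoplasm and raise protein synthesis steeply when they are activated, and many cytosolic synthetase genes are known targets of ATF4, the transcription factor of the amino acid response. The synthetase genes were taken from the deposited count table by symbol, as every symbol made of 1 letter followed by ars or ars2, together with Eprs, Farsa and Farsb. This gave 37 genes of 24976 gene symbols, 20 cytosolic and 17 mitochondrial, with the symbols that end in 2 taken as mitochondrial. The rule itself used no expression value, though the set was chosen with earlier results of these data known.

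Bulk RNA came from naive CD8+ T cells of mice, which were stimulated in vitro through CD3 and CD28 by antibodies, with IL-2 in the medium. The 8 libraries form 4 groups of 2: cells labelled dKO at 48 h, WT cells at 48 h, cells labelled dKO at 24 h and WT cells at 24 h. The donors of the dKO cells carried a Cd8Cre transgene with Nr4a1 flox/flox and Nr4a2 flox/flox alleles, so that deletion depends on Cre under Cd8 control in the T cells themselves, and WT littermates gave the other cells. Both genes encode nuclear receptors whose transcription follows antigen receptor signals. The sources used here do not state the ages of the mice, the number of mice behind each library or whether the WT littermates carried Cre or floxed alleles, and p-values measure only the spread between these libraries, which may be technical.

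Total counts were 6954913 and 7911611 in the dKO-labelled libraries at 48 h, 7018314 and 21686236 in WT at 48 h, 8278058 and 5000952 in those labelled dKO at 24 h, and 6900893 and 5824552 in WT at 24 h. Levels are given as counts per 1e6 counts after scaling between libraries by the trimmed mean of M values (CPM). Nr4a2 was higher in the libraries labelled dKO at 48 h (log2 fold change 1.38, SE 0.18, edgeR adjusted p = 0.00982) and at 24 h (1.35, SE 0.17, adjusted p = 0.00836), while Nr4a1 passed at neither time (−0.35 at 48 h, adjusted p = 0.380, and 0.37 at 24 h, adjusted p = 0.880). Counts per gene cannot show the loss of floxed exons, so these values do not check the deletion, and the groups are called by their labels throughout. Under the dKO label Xist ranged over 0.656 to 1.67 CPM, against 387 to 818 CPM in WT, and the summed Y-linked genes over 135 to 158.5 CPM, against 1.32 to 2.00 CPM in WT, so the genotype label and the sex of the donors cannot be told apart. Of the CD8 T cell markers 5 of 6 were in the table, with sums of 1660 and 1713 CPM in the libraries labelled dKO at 48 h, 1591 and 1230 CPM in WT at 48 h, 1538 and 1613 CPM in those labelled dKO at 24 h, and 1961 and 1864 CPM in WT at 24 h. All 5 had a positive log2 fold change between genotypes at 48 h (median 0.27, 0 called) and a negative one at 24 h (−0.29, 0 called) and over time in WT cells (−0.53, with Cd3e called lower). Of the markers of other cells, Lyz2, S100a8, Ncr1, Hba-a1 and Hbb-bs had 0 counts and Cd4 had 3 over all libraries. Foxp3, from the list of CD4 and regulatory T cells, had 181 counts and a log2 fold change of −0.58 over both times (adjusted p = 0.164). The B cell markers, 4 of 5 in the table, summed to 3.72 to 6.60 CPM, and those of NK and gamma delta T cells, 2 of 4, to 0 to 0.298 CPM. The list of red cell, platelet and stromal markers, all 5 in the table and mostly Pecam1 (467 counts) and Pf4 (109), summed to 6.55 and 6.24 CPM in the libraries labelled dKO at 48 h, 9.40 and 12.8 CPM in WT at 48 h, 6.35 and 6.69 CPM in those labelled dKO at 24 h, and 9.13 and 8.08 CPM in WT at 24 h. At 48 h their log2 fold changes were −0.72 for Pecam1 (adjusted p = 0.111) and −1.24 for Pf4 (0.0551). Over time in WT cells Pf4 was called higher. The myeloid list, of which 5 of 6 markers were in the table, summed to 5.21 and 5.07 CPM in the libraries labelled dKO at 48 h, 13.5 and 10.85 CPM in WT at 48 h, 4.05 and 4.28 CPM in those labelled dKO at 24 h and 4.08 and 3.53 CPM in WT at 24 h. Most of that sum was Cd14, which was called lower in the cells labelled dKO at 48 h. Beside the calls in these lists, edgeR called 11.2% of all genes tested between genotypes at 48 h and 0.432% at 24 h. Over time in WT cells it called 11.4%. The part of these lists in the results was not tested.

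The promoter sequences of 4 synthetase genes are shown because these genes carry the changes described below or the element of the amino acid response. Each stretch is the 250 bases before the start of the gene in the RefSeq annotation of GRCm38.p6, written 5′ to 3′ on the strand of the gene. Gars (chr6:55037751-55038000, plus strand) and Tars (chr15:11399659-11399908, minus strand) are shown with a match to the amino acid response element, TGATGNAAN, in capitals, which reads as its reverse complement on the gene's strand. Farsa (chr8:84856736-84856985, plus strand) is shown with the core of ETS factor sites, CCGGAAG, in capitals, also as its reverse complement. Yars2 (chr16:16302715-16302964, plus strand) held none of the 5 motifs searched and has no capitals.
Gars: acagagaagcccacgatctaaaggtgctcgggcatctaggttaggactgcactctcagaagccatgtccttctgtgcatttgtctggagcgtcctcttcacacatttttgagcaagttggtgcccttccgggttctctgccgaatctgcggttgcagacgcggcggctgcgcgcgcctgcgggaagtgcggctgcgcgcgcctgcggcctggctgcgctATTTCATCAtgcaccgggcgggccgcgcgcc
Tars: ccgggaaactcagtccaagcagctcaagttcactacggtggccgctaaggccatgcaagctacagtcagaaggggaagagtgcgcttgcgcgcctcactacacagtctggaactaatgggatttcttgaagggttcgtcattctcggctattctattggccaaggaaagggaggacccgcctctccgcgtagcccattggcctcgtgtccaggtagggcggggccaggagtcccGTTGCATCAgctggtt
Farsa: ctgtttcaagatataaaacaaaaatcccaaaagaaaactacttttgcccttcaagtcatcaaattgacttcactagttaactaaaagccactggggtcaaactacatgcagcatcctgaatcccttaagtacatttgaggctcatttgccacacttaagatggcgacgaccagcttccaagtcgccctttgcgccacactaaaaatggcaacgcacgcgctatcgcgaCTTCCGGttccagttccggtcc
Yars2: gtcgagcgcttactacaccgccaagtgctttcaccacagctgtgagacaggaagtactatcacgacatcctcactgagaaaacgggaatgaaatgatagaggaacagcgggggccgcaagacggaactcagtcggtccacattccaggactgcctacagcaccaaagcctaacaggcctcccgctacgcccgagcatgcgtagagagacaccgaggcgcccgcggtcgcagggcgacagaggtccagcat

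A promoter of this kind was found for 27 of the 37 synthetase genes, 13 cytosolic and 14 mitochondrial, and for 27025 genes in all. Both strands were searched, and motifs were allowed to overlap. TGATGNAAN was found in 3 of the 27 promoters (11.1%, against 3.89% of all promoters), those of the cytosolic genes Aars, Gars and Tars, and in 0 of the 14 mitochondrial ones. The E-box CACGTG, to which MYC family factors bind, was found in Aars, Farsb and Iars (11.1%, against 6.86%). CCGGAAG was found in 7 promoters (25.9%, against 7.83%), those of Cars2, Farsa, Gars, Mars, Mars2, Sars and Sars2. CCAAT was found in 12 (44.4%, against 37.5%), and the palindrome of the factor NRF1 in Kars and Tars (7.41%, against 4.23%). A match is a run of letters only and says nothing of binding.

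The first question was how much synthetase RNA the activated cells held in each group. In bulk RNA, fewer cells of a type and less RNA per cell cannot be told apart. All 37 genes were counted in every library, with a smallest count of 24, and all 37 passed the filter on low counts, as 12742 genes did. The summed cytosolic genes stood at 1630.5 and 1731.6 CPM in the libraries labelled dKO at 48 h and 1492.8 and 1628.3 CPM in WT at 48 h. At 24 h the sum was 1817.6 and 1700.4 CPM in the libraries labelled dKO and 1640.6 and 1836 CPM in WT. The summed mitochondrial genes stood at 345.7 and 352.9 CPM in the libraries labelled dKO at 48 h, 303.6 and 324.35 CPM in WT at 48 h, 334.3 and 338.3 CPM in those labelled dKO at 24 h, and 318.4 and 350.3 CPM in WT at 24 h. At 48 h the mitochondrial sum of both libraries labelled dKO lay above that of both WT libraries. So did the cytosolic sum, though the closest libraries were nearly level. At 24 h the groups overlapped in both sums.

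Single synthetase genes were also close between the 4 groups. The ratio of the highest to the lowest group mean had a median of 1.22 over the 20 cytosolic genes, from 1.06 in Cars, the cysteine enzyme, to 1.72 in Lars, the leucine enzyme. For the 17 mitochondrial genes the median was 1.30, from 1.04 in Tars2 to 1.57 in Yars2. The ratio was under 1.5 in 18 of 20 cytosolic genes (90%) and 14 of 17 mitochondrial ones (82.4%), against 47.4% of all genes tested, whose median was 1.53. The median count of the genes differs, at 601 for the cytosolic, 122 for the mitochondrial and 145 for all genes tested, and the part of the count in these shares was not tested. The lowest group mean was that of WT at 48 h in 11 of 20 cytosolic and 11 of 17 mitochondrial genes, against 27.6% of all genes tested.

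**Figure D1:**
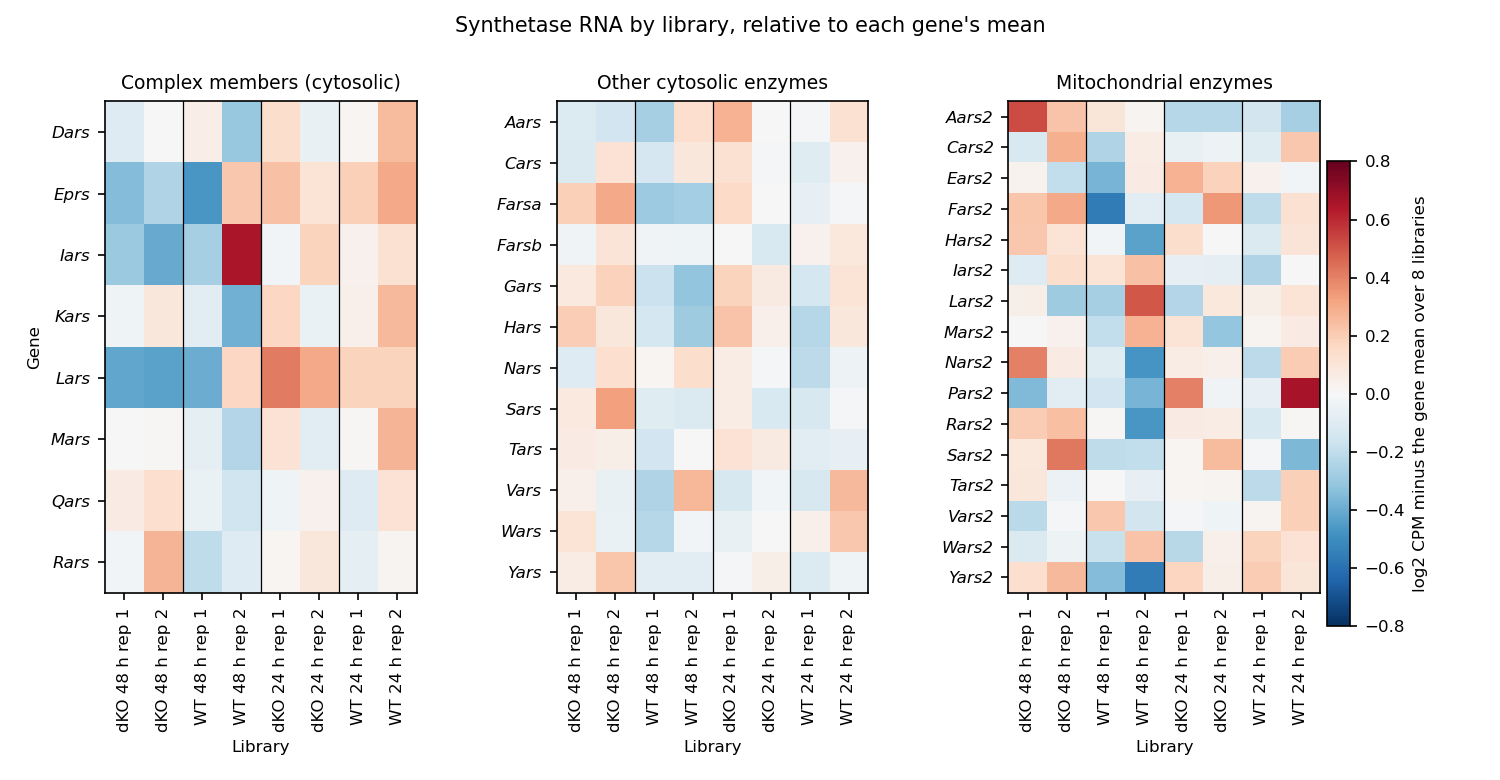
Heat map of the log2 CPM of 36 synthetase genes, each minus its mean over the 8 libraries, with a row per gene and a column per library; blue is below and red above the gene's mean. Most cells are pale, Yars2 is low in both WT libraries at 48 h, and Lars, Eprs and Iars are low in every library at 48 h but the second of WT.

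At 48 h Farsa and Yars2 were higher in the cells labelled dKO than in WT cells, each by about 0.5 to 0.7 on the log2 scale, and no other synthetase gene passed the test in this comparison. These were 1 of 20 cytosolic and 1 of 17 mitochondrial genes, beside 11.2% of all genes tested (3.19% higher and 8.04% lower) by the edgeR quasi-likelihood test at an adjusted p below 0.05, so the share of synthetase genes called higher was near that background. The median log2 fold change was 0.14 over the cytosolic and 0.17 over the mitochondrial genes, against −0.03 over all genes tested. The log2 fold change was above 0 in 14 of 20 cytosolic genes and 12 of 17 mitochondrial ones, beside 48.2% of all genes tested. With a mean of at least 50 counts the cytosolic median was 0.08 and the mitochondrial 0.19, against −0.02 over all genes. Without the second WT library of 48 h they were 0.17 and 0.22, against 0.0029. Without the second library labelled dKO of 48 h they were 0.13 and 0.12, against −0.05. Both libraries labelled dKO lay above both WT libraries in 11 cytosolic and 8 mitochondrial genes, beside 28.3% of all genes tested, and below them in Iars and Lars, beside 28.6%.

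Farsa encodes the alpha subunit of the cytosolic phenylalanine enzyme and lies on chromosome 8 at 84856989 to 84869257 of GRCm38. It stood at 71.0 and 76.8 CPM in the libraries labelled dKO at 48 h, 50.9 and 51.6 CPM in WT at 48 h, 69.4 and 62.1 CPM in those labelled dKO at 24 h, and 59.4 and 61.8 CPM in WT at 24 h. The WT libraries at 48 h were the lowest of the 8, and those labelled dKO at 48 h the highest. The log2 fold change at 48 h was 0.53 (SE 0.13, 95% interval 0.23 to 0.83, edgeR adjusted p = 0.0363). The call was lost in DESeq2 (adjusted p = 0.0829), with only the groups compared in the fit (0.158), with a replicate block (0.0544) and when any single library other than a WT library of 48 h was left out (adjusted p 0.064 to 0.2775).

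Farsb encodes the beta subunit of the same enzyme and lies on chromosome 1 at 78417975 to 78488897. It stood at 111 and 122 CPM in the libraries labelled dKO at 48 h, 111 and 111 CPM in WT at 48 h, 113 and 104 CPM in those labelled dKO at 24 h, and 116 and 120.4 CPM in WT at 24 h. These values lay within a narrow range, and the difference at 48 h was 0.07 (95% interval −0.23 to 0.38, adjusted p = 0.742). The count of Farsa over that of Farsb within a library was 0.637 and 0.629 in the dKO-labelled libraries at 48 h, 0.457 and 0.465 in WT at 48 h, 0.612 and 0.595 in those labelled dKO at 24 h, and 0.511 and 0.513 in WT at 24 h. The ratio was higher in the libraries labelled dKO at both times without overlap. It was computed after the values had been seen, and it was not tested.

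Yars2 encodes the mitochondrial tyrosine enzyme and lies on chromosome 16 at 16302965 to 16309640. It stood at 43.5 and 47.4 CPM in the libraries labelled dKO at 48 h, 31.1 and 26.9 CPM in WT at 48 h, 44.6 and 40.9 CPM in those labelled dKO at 24 h, and 45.7 and 42.3 CPM in WT at 24 h. The WT libraries of 48 h stood alone below the other 6. The log2 fold change at 48 h was 0.66 (SE 0.15, 95% interval 0.33 to 0.99, edgeR adjusted p = 0.0233), and DESeq2 also called it (adjusted p = 0.0435). The call was lost with only the groups compared in the fit (adjusted p = 0.131) and when the second WT library of 24 h or any library labelled dKO was left out (adjusted p 0.0504 to 0.221). The cytosolic tyrosine enzyme, encoded by Yars, stood at 54.6 and 61.1 CPM in the libraries labelled dKO at 48 h, 49.5 and 49.6 CPM in WT at 48 h, 52.0 and 54.1 CPM in those labelled dKO at 24 h, and 48.6 and 51.3 CPM in WT at 24 h. Its difference at 48 h was 0.22 (95% interval −0.07 to 0.52, adjusted p = 0.266), and it passed in no comparison.

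Of the genes that did not pass after adjustment, 6 had an unadjusted p below 0.05 at 48 h. Farsa and Yars2 included, 7 of 37 lay above 0 at that threshold and 1 below, beside 1783 and 2430 of all 12742 genes tested. Gars, which encodes the glycine enzyme of both compartments, stood at 150.1 and 161 CPM in the libraries labelled dKO and 126 and 114 CPM in WT, with a log2 fold change of 0.38 (adjusted p = 0.118). The other 4 above 0 were Hars (0.36, adjusted p = 0.151), Nars2 (0.55, 0.118), Rars2 (0.45, 0.119) and Sars2 (0.46, 0.141). Iars, which encodes the cytosolic isoleucine enzyme, went the other way at −0.63 (adjusted p = 0.115). Sars2 stood at 13.5 and 17.1 CPM in the libraries labelled dKO at 48 h, 11.1 and 11.2 CPM in WT at 48 h, 12.9 and 15.2 CPM in those labelled dKO at 24 h, and 12.6 and 9.99 CPM in WT at 24 h. Hars and Hars2 overlap head to head by 198 bases on chromosome 18, and whether reads were counted by strand is not given, so a part of the counts of either may come from the other. Cars2, Ears2, Fars2, Farsb, Iars2, Mars, Wars and Yars also overlap a gene on the other strand that had counts, and their values carry the same kind of uncertainty. Its size differs, as these genes had from 10 counts in all libraries (at Yars) to 3227 (at Fars2). Aars overlaps Exosc6 on the same strand (4214 counts, against 3342 for Aars), so counting by strand would not separate them.

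**Figure D2:**
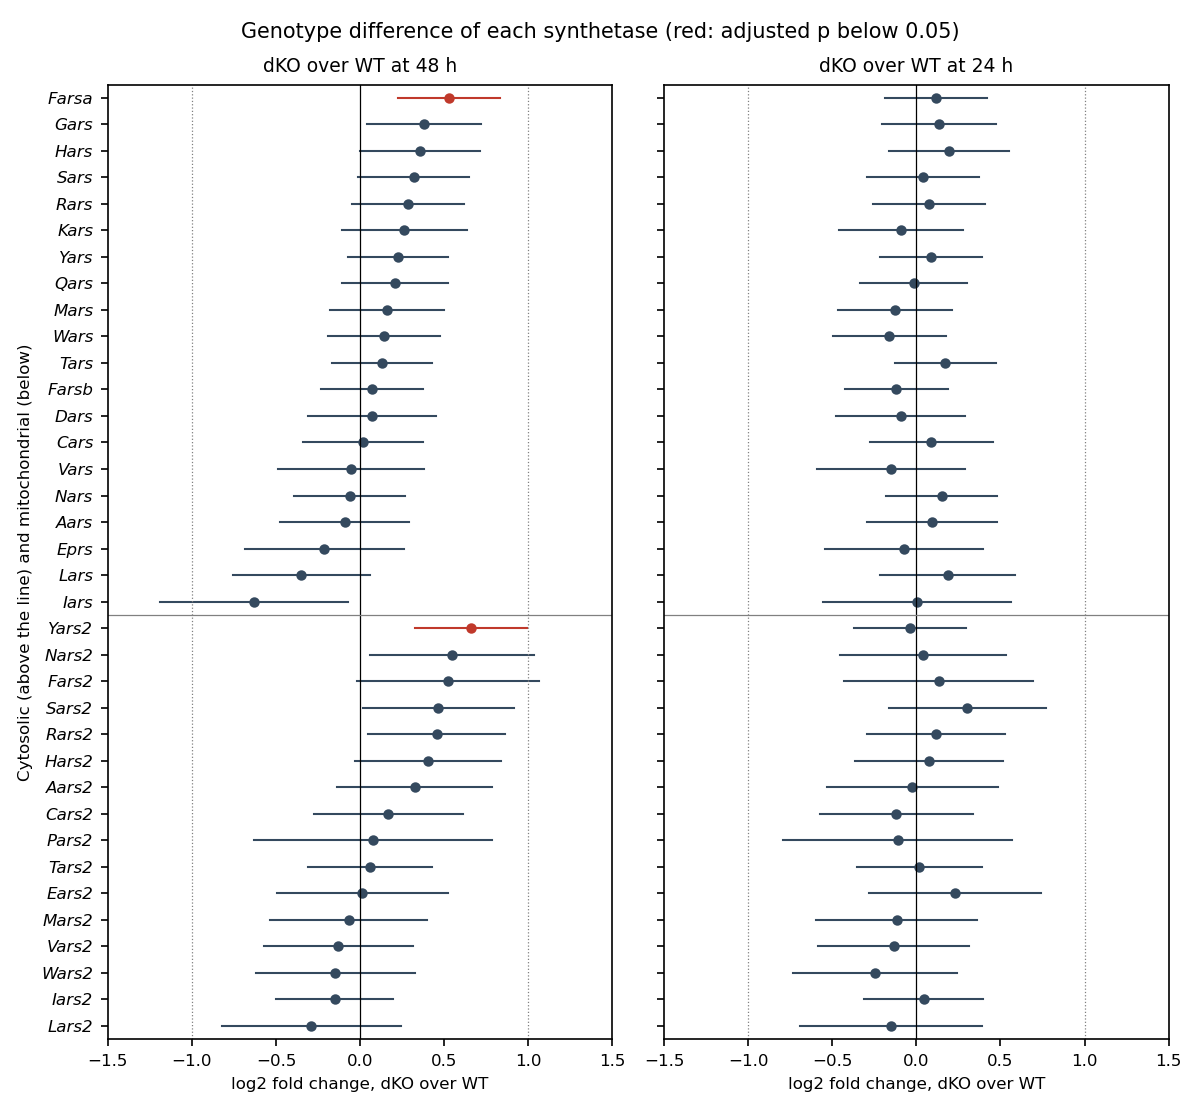
Log2 fold change of 36 synthetase genes, cells labelled dKO over WT, at 48 h on the left and 24 h on the right; points are estimates and lines 95% intervals, cytosolic genes lie above the grey line and mitochondrial ones below it, and dotted lines mark a 2-fold difference. Farsa and Yars2 at 48 h are drawn in red, as the genes with an adjusted p below 0.05, and all points at 24 h lie between −0.25 and 0.30.

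At 24 h no synthetase gene passed the test between cells labelled dKO and WT cells. Both edgeR and DESeq2 called 0 of 37, beside 0.432% of all genes called by edgeR (0.361% higher and 0.0706% lower). At an unadjusted p below 0.05 there were 0 of 37, beside 500 genes above 0 and 389 below 0 of all 12742 tested. The log2 fold changes ran from −0.16 to 0.20 in the cytosolic genes, with a median of 0.06, and the mitochondrial ones had a median of 0.02, against 0.01 over all genes tested. These medians were 0.00061 and −0.07 without the first WT library of 24 h, 0.10 and 0.15 without the second, and 0.01 and −0.00016 without the first library labelled dKO. The 95% interval lay within 1 log2 unit of 0 in all 20 cytosolic and all 17 mitochondrial genes, which leaves a 2-fold difference outside it. Both libraries labelled dKO lay above both WT libraries in 5 cytosolic and 4 mitochondrial genes, beside 24.3% of all genes, and below them in 2 and 2, beside 20.6%.

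The genotype test over both times called 0 of 37 synthetase genes in edgeR and 0 in DESeq2, beside 7.80% of all genes tested (2.28% higher and 5.52% lower). Of the 37, 6 had an unadjusted p below 0.05, beside 1580 genes above 0 and 1980 below 0 of all 12742 tested. All 6 synthetase genes had a positive log2 fold change, dKO over WT, among them Farsa (0.32, adjusted p = 0.0680), Gars (0.26, 0.155), Hars (0.28, 0.148), Sars2 (0.38, 0.126) and Yars2 (0.31, 0.0984). The test of whether the genotype difference changed between 24 and 48 h called 0 of 37 in edgeR and 0 in DESeq2, as it called 0% of all genes tested in edgeR. Among the synthetase genes Yars2 had the only unadjusted p below 0.05 in it, beside 436 genes above 0 and 1139 below 0 of all 12742 tested. The difference for Yars2 was 0.70 (SE 0.21, 95% interval 0.23 to 1.17, unadjusted p = 0.00804, adjusted p = 0.369). That Farsa and Yars2 passed at 48 h and not at 24 h is therefore not shown to be a difference between the times.

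**Figure D3:**
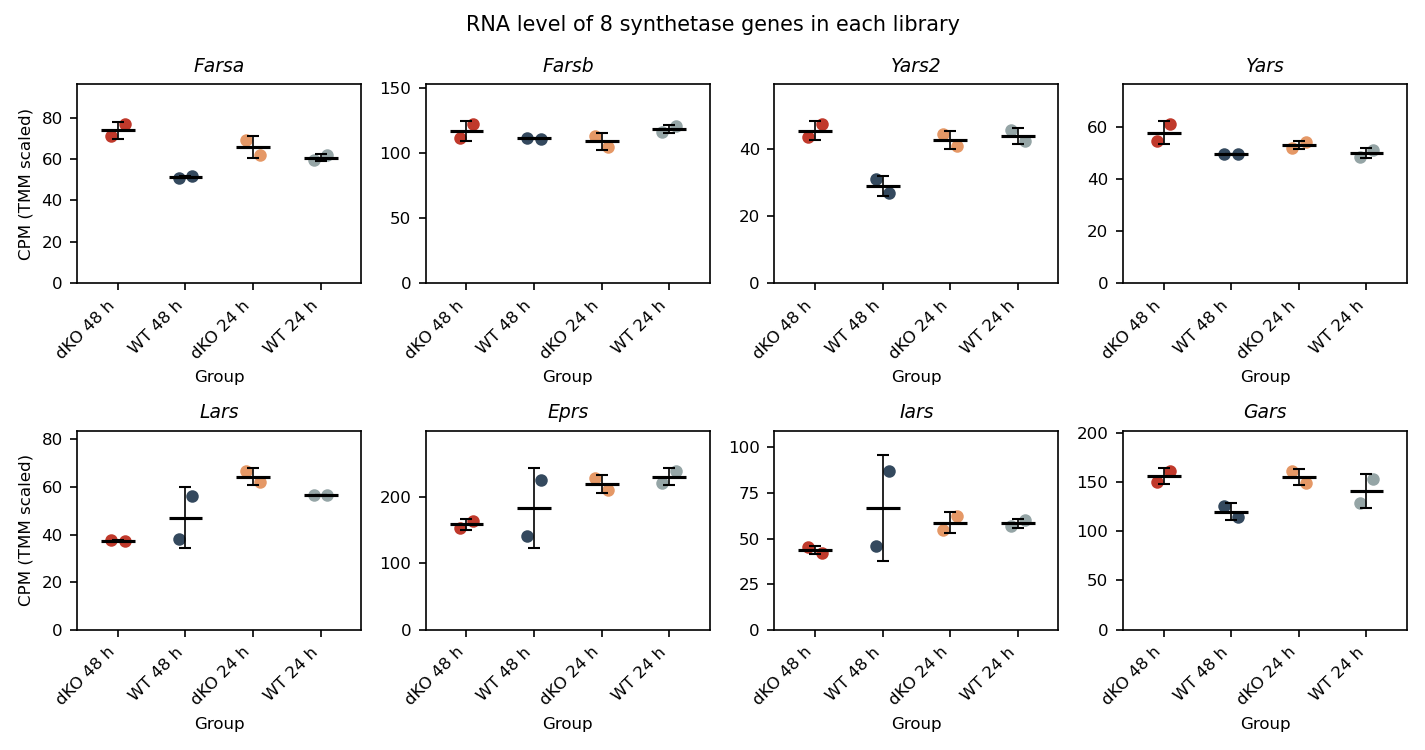
Level in CPM of 8 synthetase genes in each library, by group; points are single libraries, the horizontal line is the group mean and the bar its SD (n = 2). In Farsa and Yars2 the WT points of 48 h lie below all others, while in Lars, Eprs and Iars the 2 WT points of 48 h lie far apart.

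The multi-synthetase complex holds 8 of the cytosolic enzymes, namely Dars, Eprs, Iars, Kars, Lars, Mars, Qars and Rars, on 3 scaffold proteins. Among these 8 genes 0 were called between genotypes by edgeR or DESeq2, beside 11.2% of all genes called at 48 h and 0.432% at 24 h. Iars alone had an unadjusted p below 0.05, at 48 h and below 0, beside 2430 of all 12742 genes tested. Over time 1 of 8, Lars, was called in the cells labelled dKO, beside 3.63%, and 0 in WT cells, beside 11.4%. Counts this small are near those shares. Lars, on chromosome 18 at 42202298 to 42262194, stood at 37.5 and 37.2 CPM in the libraries labelled dKO at 48 h, 38.1 and 56.1 CPM in WT at 48 h, 66.8 and 61.9 CPM in those labelled dKO at 24 h, and 56.6 and 56.7 CPM in WT at 24 h. Its 2 libraries labelled dKO at 48 h and the first WT library of 48 h were low, and the second WT library of 48 h was level with 24 h. In the cells labelled dKO it fell to 37.3 CPM at 48 h, against 64.4 CPM at 24 h, a log2 fold change of −0.79 (SE 0.18, 95% interval −1.20 to −0.38, edgeR adjusted p = 0.0485, DESeq2 adjusted p = 0.0395). The call was lost with DESeq2 size factors in edgeR (adjusted p = 0.0562), with a mean of at least 50 counts (0.0540), with a replicate block (0.0566) and when any library other than a WT library of 48 h was left out (0.0768 to 0.352).

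Eprs, a single protein with a glutamate and a proline enzyme, lies on chromosome 1 at 185363044 to 185428360. It stood at 153 and 164 CPM in the libraries labelled dKO at 48 h, 140.3 and 225 CPM in WT at 48 h, 228 and 209 CPM in those labelled dKO at 24 h, and 221 and 239 CPM in WT at 24 h. Iars, on chromosome 13 at 49682100 to 49734267, stood at 45.1 and 42.0 CPM in the libraries labelled dKO at 48 h, 46.1 and 87.2 CPM in WT at 48 h, 54.6 and 62.6 CPM in those labelled dKO at 24 h, and 56.6 and 60.2 CPM in WT at 24 h. As in Lars, 3 libraries of 48 h lay below all 4 of 24 h, while the second WT library of 48 h was level with 24 h in Eprs and the highest of the 8 in Iars. Neither was called in any of the 6 comparisons. The fit was repeated without each library in turn. Leaving out a WT library of 48 h left 1 in that group, which was then assumed to vary like the other groups. Without the second WT library of 48 h, the genotype difference at 48 h was −0.08 for Iars (adjusted p = 0.798), 0.18 for Eprs and −0.02 for Lars, and without the first it was −1.02 (2.58e-05), −0.52 (0.00576) and −0.60 (0.000824). In the fit without the first WT library 6521 of 13248 genes were called at 48 h, Iars, Eprs and Lars among them. In the fit without the second 1162 of 13228 were, and those 3 genes were not.

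Kars, the lysine enzyme of both compartments, lies on chromosome 8 at 111993443 to 112011323. It stood at 113 and 123 CPM in the libraries labelled dKO at 48 h, 108 and 88.4 CPM in WT at 48 h, 129.5 and 111 CPM in those labelled dKO at 24 h, and 118 and 138 CPM in WT at 24 h. Its smallest p was that over time in WT cells, a log2 fold change of −0.39 (SE 0.17, adjusted p = 0.183). Qars encodes the glutamine enzyme of the cytosol. Mammalian mitochondria charge glutamate first and amidate it afterwards, so no Qars2 exists. Qars stood at 51.5 and 54.2 CPM in the libraries labelled dKO at 48 h, 47.5 and 44.2 CPM in WT at 48 h, 48.0 and 50.4 CPM in those labelled dKO at 24 h, and 45.9 and 53.5 CPM in WT at 24 h. Its libraries at 48 h did not overlap between the labels, though it passed in no comparison.

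Among the other mitochondrial genes, Rars2, the mitochondrial arginine enzyme, stood at 29.8 and 30.5 CPM in the libraries labelled dKO at 48 h, 26.0 and 18.7 CPM in WT at 48 h, 27.0 and 27.0 CPM in those labelled dKO at 24 h, and 23.7 and 26.0 CPM in WT at 24 h. Nars2, the mitochondrial asparagine enzyme, stood at 18.9 and 14.9 CPM in the libraries labelled dKO at 48 h, 13.3 and 10.3 CPM in WT at 48 h, 14.9 and 14.7 CPM in those labelled dKO at 24 h, and 12.4 and 16.4 CPM in WT at 24 h. In both genes the libraries labelled dKO exceeded the WT libraries at 48 h, and the second WT library of 48 h was the lowest of the 8. Lars2, the mitochondrial leucine enzyme, stood at 49.4 and 39.2 CPM in the libraries labelled dKO at 48 h, 39.6 and 67.4 CPM in WT at 48 h, 40.6 and 50.6 CPM in those labelled dKO at 24 h, and 49.3 and 51.6 CPM in WT at 24 h. Here the second WT library of 48 h was the highest, and the genotype difference at 48 h was 0.16 without it and −0.62 (adjusted p = 0.00291) without the first, in the fit that rests on 1 WT library and called 6521 of 13248 genes. Pars2, the mitochondrial proline enzyme, ran from 3.53 CPM in a WT library of 48 h to 7.20 CPM in one of 24 h, with no unadjusted p below 0.05. Cars2, Ears2, Fars2, Hars2, Iars2, Mars2, Tars2, Vars2 and Wars2 had no unadjusted p below 0.05 in any of the 6 comparisons, and neither had the cytosolic genes Aars, Cars, Dars, Eprs, Farsb, Mars, Nars, Qars, Rars, Sars, Tars, Vars, Wars and Yars.

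The scaffolds of the complex are encoded by Aimp1, Aimp2 and Eef1e1. In each of the 6 comparisons edgeR called 0 of 3, beside 0% to 11.4% of all genes tested. At most 1 had an unadjusted p below 0.05 in a comparison, beside 1783 genes above 0 and 2430 below 0 of all 12742 at 48 h. Eef1e1 stood at 237 and 233 CPM in the libraries labelled dKO at 48 h, 169 and 92.6 CPM in WT at 48 h, 219.9 and 203 CPM in those labelled dKO at 24 h, and 163 and 167 CPM in WT at 24 h. All 4 libraries labelled dKO lay above all 4 WT libraries, but the share of all genes that separate in this way was not computed. The log2 fold change at 48 h was 0.85 (SE 0.24), with an adjusted p of 0.0504 in edgeR and 0.0148 in DESeq2, so that only DESeq2 called it.

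The change over time was small for the set as a whole. Between 48 and 24 h in the cells labelled dKO, 1 of 37 genes was called, Lars, beside 3.63% of all genes tested (1.76% higher and 1.88% lower), and the cytosolic median was −0.00071 and the mitochondrial 0.09, against −0.01 over all genes (−0.05 to 0.05 and 0.01 to 0.10 with any single library left out). Both libraries of 48 h lay above both of 24 h in 4 cytosolic and 3 mitochondrial genes, beside 32.8% of all genes tested, and below them in 5 and 2, beside 33.5%. Aars2, the mitochondrial alanine enzyme on chromosome 17 at 45506841 to 45520843, stood at 9.38 and 7.67 CPM in the libraries labelled dKO at 48 h, 7.0 and 6.64 CPM in WT at 48 h, 5.58 and 5.58 CPM in those labelled dKO at 24 h, and 5.90 and 5.43 CPM in WT at 24 h. All 4 libraries of 48 h lay above all 4 of 24 h, but the share of all genes that separate in this way was not computed. In the cells labelled dKO the difference was 0.61 (SE 0.22, adjusted p = 0.142), which did not pass. In WT cells 1 of 37 was called, beside 11.4% of all genes tested (7.87% higher and 3.5% lower). This was Yars2, which fell to 29.0 CPM at 48 h, against 44.0 CPM at 24 h, a log2 fold change of −0.61 (SE 0.15, 95% interval −0.94 to −0.28, edgeR adjusted p = 0.0265). DESeq2 did not call it (adjusted p = 0.0837), and the call was lost with only the groups compared in the fit (0.179) and without any library other than those of WT at 48 h (adjusted p 0.0652 to 0.161). The median in WT cells was −0.12 over the cytosolic and −0.10 over the mitochondrial genes, against 0.0018 over all genes. Of the synthetase genes 16 of 20 and 13 of 17 lay below 0, while 50.1% of all genes tested lay above it. The WT libraries of 48 h lay above those of 24 h in 1 cytosolic and 2 mitochondrial genes, beside 22.7% of all genes tested, and below them in 8 and 2, beside 24.4%. Without the first WT library of 48 h the medians were −0.05 and −0.04, and 12 of 20 and 10 of 17 lay below 0. Without the second WT library of 48 h they were −0.18 and −0.12, with 19 of 20 and 12 of 17 below 0. Without the first WT library of 24 h they were −0.23 and −0.23, with 18 of 20 and 12 of 17 below 0. Without the second they were −0.07 and −0.12, with 15 of 20 and 11 of 17 below 0.

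Some of these values moved with transcript length. The WT libraries of 48 h stood apart from each other, with a correlation of log2 CPM across genes of 0.9645, against 0.9853 to 0.9894 for the other pairs of replicates. The second exceeded the first more in genes with longer transcripts (Spearman's rho 0.495 over 11844 genes), and the other 3 pairs had a rho of −0.0406 to 0.0795. Over the 37 synthetase genes rho was 0.387. The second WT library exceeded the first by over 0.5 log2 units in 5 synthetase genes, Iars (0.92), Lars2 (0.76), Eprs (0.68), Lars (0.56) and Vars (0.51), whose transcripts run from 3894 to 4906 bases, and the lowest difference was −0.46 in Rars2, at 1868 bases. The genotype difference at 48 h was more negative in longer transcripts, with a rho of −0.613 over the synthetase genes and −0.452 over all genes, and at 24 h the values were −0.145 and −0.156. These correlations run over genes of the same libraries, which are not independent. The share of counts in 89 ribosomal protein genes was 11.92% and 11.69% in the dKO-labelled libraries at 48 h and 9.83% and 6.26% in WT at 48 h, against 10.42% to 11.91% at 24 h. Farsa, at 1826 bases, and Yars2, at 1574 bases, are among the shortest. With the length trend of all genes removed, an alternative added after the values had been seen, Farsa was still called at 48 h (0.42, adjusted p = 0.0478), and so was Yars2 (0.51, 0.0227). Lars was still called over time in the cells labelled dKO (−0.69, 0.0204).

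**Figure D4:**
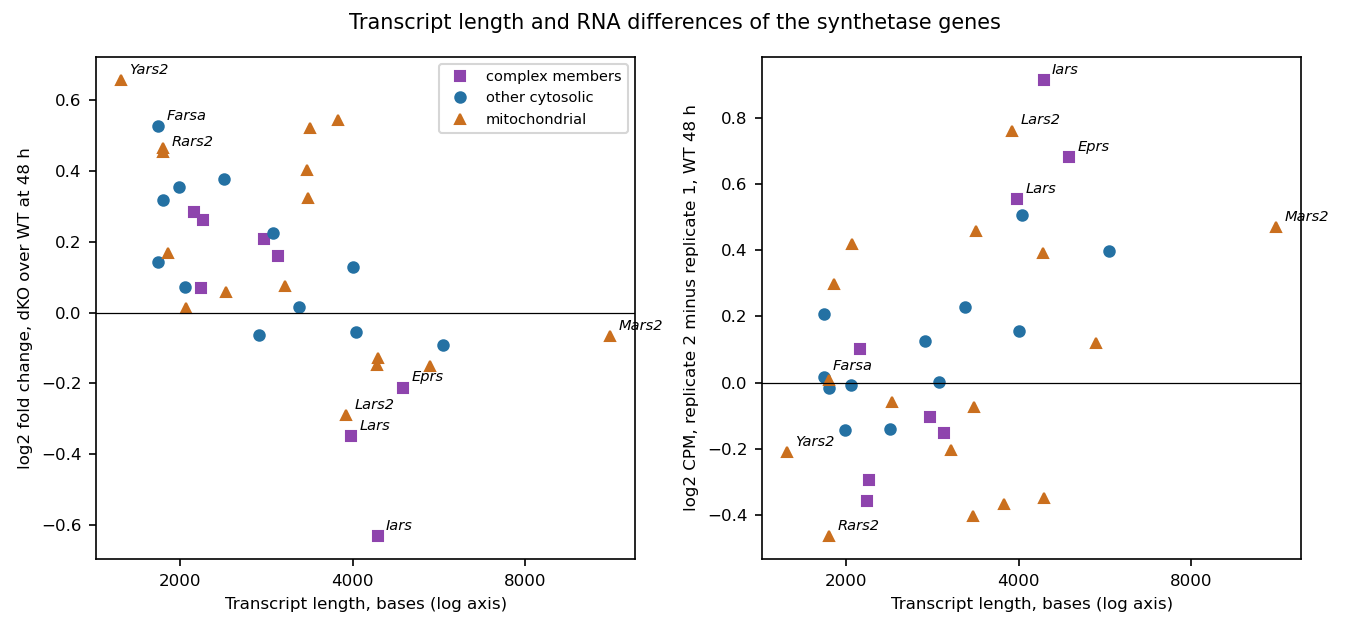
Transcript length of 36 synthetase genes on a log axis against their log2 fold change at 48 h, cells labelled dKO over WT (left), and against the log2 difference between the 2 WT libraries of 48 h (right); each point is a gene, by class. Short genes such as Yars2 and Farsa lie at the top left of the left panel, and Iars, Lars2, Eprs and Lars lie highest on the right.

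Genes around the synthetases gave the following counts, all from lists written with earlier results of these data known. Of 13 related genes, which encode synthetase-like, editing and tRNA-linked proteins, 0 were called between genotypes by edgeR or DESeq2, beside 11.2% of all genes called at 48 h. At 48 h 3 lay above 0 and 0 below at an unadjusted p below 0.05, beside 1783 and 2430 of all 12742 genes tested. Over time in WT cells 2 of the 13 related genes fell by edgeR, beside 3.5% of all genes, and 0 by DESeq2. Among the 2 was Gatc, a subunit of the mitochondrial amidotransferase (−0.60, adjusted p = 0.0467 in edgeR and 0.212 in DESeq2). Of 23 tested targets of ATF4, 2 were higher in the cells labelled dKO at 48 h, Eif4ebp1 (0.72, SE 0.15, adjusted p = 0.0170) and Atf3 (0.78, 0.0452), beside 3.19% of all genes. Over both times 3 were higher, beside 2.28%, namely Asns (0.94, SE 0.21, adjusted p = 0.0287), Cth (1.68, SE 0.31, 0.0206) and Atf3 (0.67, 0.0297). At 24 h edgeR called 0 of the 23, with 5 above 0 at an unadjusted p below 0.05, beside 500 of all 12742 genes tested. Of the 23, DESeq2 called 1, Cth (2.46 in edgeR, adjusted p = 0.0647, and 0.00512 in DESeq2). Of all 12742 genes, DESeq2 called 62 higher and 16 lower at 24 h. Ddit4, an inhibitor of mTORC1 signalling, rose over time in the cells labelled dKO (0.81, adjusted p = 0.0479) and in WT cells (1.31, 0.00258), and Sesn2 rose in WT cells (0.92, 0.0475). These are 1 and 2 of 23 genes, beside 1.76% and 7.87% of all genes higher. Atf3 and Sesn2 were named after their calls had been seen, and DESeq2 called neither (adjusted p = 0.151 for Atf3 at 48 h and 0.104 for Sesn2). Asns makes asparagine and Cth makes cysteine. Asns stood at 17.0 and 16.4 CPM in the libraries labelled dKO at 48 h, 15.2 and 7.79 CPM in WT at 48 h, 14.3 and 18.0 CPM in those labelled dKO at 24 h, and 6.32 and 6.90 CPM in WT at 24 h. The 3 cytosolic synthetase genes whose promoters hold the amino acid response element, Aars, Gars and Tars, were called in 0 of the 6 comparisons by edgeR or DESeq2, and Gars had an unadjusted p below 0.05 at 48 h and over both times. Atf4 itself stood at 260.4 and 289.6 CPM in the libraries labelled dKO at 48 h, 224 and 147 CPM in WT at 48 h, 261 and 243 CPM in those labelled dKO at 24 h, and 201 and 207 CPM in WT at 24 h. Tars, the threonine enzyme, stood at 88.4 and 87.2 CPM in the libraries labelled dKO at 48 h, 75.9 and 84.5 CPM in WT at 48 h, 91.7 and 88.8 CPM in those labelled dKO at 24 h, and 79.4 and 80.8 CPM in WT at 24 h. Its 4 libraries labelled dKO lay above all 4 WT ones, while in Aars and Gars the labels overlapped. The share of all genes that separate in this way was not computed.

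Beside these lists stand, at 48 h, 3.19% of all genes higher by edgeR in the cells labelled dKO and 8.04% lower, with a median of −0.03. DESeq2 called 296 of all 12742 genes higher and 847 lower, and 48.2% of all genes lay above 0 in edgeR. Of 25 cytosolic translation factors, 3 were higher, namely Eef1d (0.65), Eif2b1 (0.68) and Eif6 (0.51), with adjusted p of 0.0396, 0.0390 and 0.0433 (0.0531 for Eif6 in DESeq2). Of 11 mitochondrial translation factors, Mrpl58, a peptidyl-tRNA hydrolase of the mitochondrial ribosome, was higher (0.67, adjusted p = 0.0494 in edgeR and 0.0632 in DESeq2) and Mtif3, an initiation factor, was lower (−1.04, 0.0147). Of 75 mitochondrial ribosomal protein genes 16, Mrpl58 again among them, were higher and 2 lower at 48 h, with a median of 0.48 (10 and 2 by DESeq2). Of the 17 mitochondrial synthetase genes 1 was higher and 0 lower, with a median of 0.17. The difference between the lists was not tested, and transcript length was not taken into account in it. Of 89 cytosolic ribosomal protein genes edgeR called 1 higher and 2 lower and DESeq2 8 higher and 2 lower, with a median of 0.32 and 82 above 0. Those that edgeR called were Rpl10l, Rpl34-ps1 and Rps4l, copies of ribosomal protein genes that the choice by symbol took in. Of 13 amino acid transporters 0 were called in the 6 comparisons by edgeR or DESeq2. At 48 h 1 lay above and 1 below 0 at an unadjusted p below 0.05, beside 1783 and 2430 of all 12742 genes tested. Slc3a2, the heavy chain shared by several transporters, was the nearest to a call at 48 h (0.47, adjusted p = 0.0756).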

How the data were processed

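The deposited values are counts, as whole numbers for each gene symbol in 8 libraries. The submitters' processing notes name cutadapt 1.18, Bowtie2 2.2.5 and the build mm10. How reads were assigned to genes, and whether by strand, is not given in the sources. As the table's name points to 5′ reads, genes were not ranked by level. Sums over genes and the ratio of Farsa to Farsb counts were compared only between libraries. A nameless last entry equal to the column total (50.0% of each column sum) was left out. Total counts of 5000952 to 21686236 put the level of 3 counts at 0.158 to 0.558 CPM, which covers counting error only.

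A model with 4 group means was fitted to the 8 libraries in edgeR 4.0.16 (R 4.3.3), with TMM scaling, filterByExpr at a minimum count of 10 (12742 genes) and the two-sided quasi-likelihood F test. The dispersion common to all genes was 0.0246. Residual degrees of freedom were 4 and prior ones 5.76. Genes were called at a Benjamini-Hochberg adjusted p below 0.05 over all genes tested in a comparison. The SE was taken from the log2 fold change and its F (size divided by root F), and intervals are at 95%. Comparisons are dKO over WT, 48 h over 24 h, and their interaction. DESeq2 1.42.0, other scalings, other filters, the compared groups alone, a replicate block and leaving out each library were the alternatives. Removal of a length trend (loess, span 0.5) was added after seeing the data. On simulated data the main test found most of the changed genes between genotypes at 48 h and over both times. The share found in the other comparisons is not given here, so this does not bear on the 0 calls at 24 h and for the interaction. The planted changes were 2-fold or larger, so smaller ones, such as those of the called synthetase genes, were not covered. False calls of the test exceeded the nominal share between genotypes at 48 h and over both times, and over time under each label.

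The synthetase genes and all lists were chosen with earlier results of these data known. Synthetase genes called in any comparison were named, with the 4 of smallest p in each compartment, Gars, Kars, Qars and Eprs, and up to 4 of smallest p in each other list. Single-gene values of some list members are left out of the text and figures. Gene positions, overlaps and transcript lengths came from GENCODE M21 (GRCm38), promoters from RefSeq.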

Additional observations from a re-analysis of the deposited data

How the results depend on the processing

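None of the 4 calls of the main fit changed direction in its comparison under any alternative run, and no count at 24 h between genotypes moved from 0. Genes outside these calls could change direction. At 48 h Eprs was −0.52 without the first WT library of 48 h and 0.18 without the second. Lars2 was −0.62 and 0.16. The numbers of genes called at 48 h between genotypes, 1 cytosolic and 1 mitochondrial, became 2 and 2 with library size alone, 0 and 0 with only the groups compared, and 0 and 1 with DESeq2. The cytosolic number was 2 with no filter on low counts, where Iars was called lower, and the mitochondrial number was 2 with the length trend removed, where Nars2 joined. Over both times the mitochondrial 0 became 1 with the length trend removed. Over time in the cells labelled dKO, the cytosolic 1 became 0 with DESeq2 size factors, 0 with a mean of at least 50 counts and 4 with only the groups compared (Aars, Eprs, Iars and Lars, all lower), and the mitochondrial 0 became 1 there (Aars2), in a fit that called 4546 of 12195 genes. Over time in WT cells, the cytosolic 0 became 8 with library size alone, all lower, and the mitochondrial 1 became 2, where 3366 of 12742 genes were called and 2641 of them lower. The mitochondrial number was 0 with DESeq2 and 0 with only the groups compared. The cause was not tested.

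With library size alone the median of all genes moved to 0.15 at 48 h between genotypes and to −0.36 over time in WT cells and −0.18 in those labelled dKO. Relative to it the cytosolic medians were 0.16, −0.13 and 0.01, against 0.16, −0.13 and 0.01 with TMM. When each library was left out in turn, the lone library of its group was assumed to vary like the other groups. The cytosolic numbers ran from 0 to 7 at 48 h between genotypes, 0 to 6 over both times, 0 to 3 over time under each label and 0 to 2 for the interaction. The mitochondrial numbers ran from 0 to 6, 0 to 7, 0 to 1 over time in cells labelled dKO, 0 to 3 in WT cells and 0 to 2 for the interaction. The highest numbers at 48 h, over both times and for the interaction came without the first WT library of 48 h (7 and 6 at 48 h, 6 and 7 over both times, 2 and 2 for the interaction). Over all genes tested and all alternatives, the number called ran from 13 to 371 at 24 h (55 as reported), 15 to 6521 at 48 h (1430), 56 to 5606 over both times (994), 32 to 4546 over time in the cells labelled dKO (463), 31 to 4212 in WT cells (1449) and 0 to 3459 for the interaction (0).

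The replicate numbers could not be shown to pair the libraries. The deviations of same-numbered libraries had correlations of −0.076 to 0.172, with 2 pairs per comparison. With a replicate block the cytosolic number was 0 at 48 h between genotypes (Farsa, adjusted p = 0.0544) and 0 over time in the cells labelled dKO (Lars, 0.0566), and the calls over all genes at 48 h were 1285. The precision at this depth left the 95% interval at 48 h between genotypes within 1 log2 unit of 0 in 34 of 37 synthetase genes.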
